A study of Homo sapiens with 4 samples.

Results

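Promoter sites that carried an ATAC-seq peak only after TWEAK were examined in SKBR3 cells. Peaks of 4 libraries that shared at least 1 bp were joined into sites. Sites were selected on the presence of peaks in both TWEAK libraries, their absence in both untreated libraries, and an edge no more than 1 kb from a TSS, the transcription start site, of a protein-coding gene. This gave 1183 gained promoter sites of 307691 merged sites, within 1 kb of a TSS of 1199 genes. Because presence of a peak chose the sites, their strength and their direction are a description and were not tested.

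The SKBR3 line derives from a HER2-positive breast cancer and carries extra copies of ERBB2. ATAC-seq uses the Tn5 transposase to insert adaptors into accessible DNA, and 2 untreated libraries were compared with 2 libraries of cells given TWEAK at 10 ng/ml for 48 h. Cultures had been starved in a reduced-serum medium for 8 h, and TWEAK was given afresh after 24 h. The methods call replicates of cell lines biological and say in general that cell line work was repeated on separate days, but neither they nor the labels tie a library to a day or batch, so a spread between 2 libraries of a group may be partly technical. Of 22 luminal and epithelial genes, 21 had a promoter peak in each of the 4 libraries, and the ERBB2 promoter peak stood at a rank percentile that rounded to 100 in every list.

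TWEAK, encoded by TNFSF12, is a cytokine of the TNF family that binds the receptor Fn14, encoded by TNFRSF12A. The receptor recruits TRAF adaptors and the inhibitors of apoptosis encoded by BIRC2 and BIRC3, and can activate both the canonical and the non-canonical NF-kB pathway. In the study's immunoblots, of cell lines that included SKBR3, TWEAK activated the non-canonical pathway and left the canonical one unaffected. NF-kB dimers bind kB sites in promoters and enhancers of genes for chemokines, cytokines, survival factors and their own inhibitors. A promoter is the stretch of DNA around a TSS at which transcription machinery assembles, and promoters rich in CpG dinucleotides are often accessible in many cell types whether or not the gene is active.

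The bases at 6 gained promoter sites are shown first, because they let the position of the kB sites within the peaks be seen. The sites at ITPR1, CAMK1G, MB, RARRES1 and CEACAM1 were the highest ranked of those with an NF-kB motif and no untreated peak within 500 bp. CXCL10 had no untreated peak at any TSS of the gene. Each run is hg38 sequence read along the strand of the gene, 5′ to 3′, and capitals mark the NF-kB motif and, in RARRES1, also the AP-1 motif TGAGTCA that follows it.
CXCL10, chr4:76023554-76023674, minus strand: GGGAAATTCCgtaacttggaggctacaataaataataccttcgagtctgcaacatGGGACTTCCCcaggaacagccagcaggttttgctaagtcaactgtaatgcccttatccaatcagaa
ITPR1, chr3:4782902-4783022, plus strand: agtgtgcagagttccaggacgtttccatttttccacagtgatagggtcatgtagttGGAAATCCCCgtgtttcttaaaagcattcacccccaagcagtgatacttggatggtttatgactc
CAMK1G, chr1:209607460-209607580, plus strand: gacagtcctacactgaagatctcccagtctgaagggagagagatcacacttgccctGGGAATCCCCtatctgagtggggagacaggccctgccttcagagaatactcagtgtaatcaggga
MB, chr22:35638570-35638690, minus strand: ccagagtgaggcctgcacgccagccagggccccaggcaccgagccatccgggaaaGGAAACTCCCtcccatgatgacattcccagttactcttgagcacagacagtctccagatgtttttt
RARRES1, chr3:158711973-158712093, minus strand: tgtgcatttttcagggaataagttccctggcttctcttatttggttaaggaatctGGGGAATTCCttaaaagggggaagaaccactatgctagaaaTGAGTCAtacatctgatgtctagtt
CEACAM1, chr19:42526603-42526723, minus strand: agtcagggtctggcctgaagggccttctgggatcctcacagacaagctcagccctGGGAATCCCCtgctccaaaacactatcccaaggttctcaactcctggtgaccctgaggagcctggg

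The CXCL10 run holds 2 NF-kB motifs, and the other 5 hold 1 each. The motif nearest the middle of the run lay at −117 bp from the CXCL10 TSS, where a minus sign means upstream. At CEACAM1 the motif lay 1159 bp downstream of the nearest TSS, inside an intron. A match of letters describes the sequence and does not show that a factor bound there.

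Gained sites were a small part of all promoter sites. Over all merged sites, 11080 had this pattern, which is 3.60%. Of 49998 promoter sites, 1183 were gained, which is 2.37%, and 1467 had the opposite pattern, a peak in both untreated libraries and none with TWEAK, which is 2.93%. Lost promoter sites were therefore more numerous than gained ones when peaks of any strength were counted. Among sites with both peaks ranked above the middle of their lists the order was reversed, with 229 gained and 155 lost. These were 19.4% of gained and 10.6% of lost promoter sites. The lower of the 2 rank percentiles of a site, higher for stronger peaks, had a median of 27.3 at gained and 15.1 at lost sites. At the level of genes, 1199 of 19962 protein-coding genes had a gained promoter site, which is 6.01%, and 1410 had a lost one, which is 7.06%. Both kinds were present at 140 genes. Leaving out any 1 of the 4 libraries relaxed the rule and gave 2519 to 3859 gained promoter sites at 2427 to 3425 genes, and canonical starts only gave 574 genes. A pattern of 2 libraries against 2 also arises when weak peaks are detected unevenly, and that part of the counts was not tested.

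Strength was read from the value deposited with each peak, which gave back the pileup, the number of overlapping reads or fragments at the peak, and the background pileup of the list. The background was 3.59 and 2.24 in untreated replicates 1 and 2 and 2.63 and 1.85 in TWEAK replicates 1 and 2, so the libraries differed in depth within as well as between groups. A peak needed at least 2.79 and 3.13 times the background in the untreated lists and 3.04 and 3.79 times in the TWEAK lists. The absence of a peak in a library does not mean that the pileup was 0, since it may have been below that limit or a neighbouring window may have taken the peak. The lists held 195315 to 228644 peaks on chromosomes 1 to 22 and X, and 34958 to 39110 of them lay at promoters. In bulk libraries a rise in the share of cells with an accessible site cannot be told apart from a rise of accessibility in every cell.

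Most gained promoter sites were weak peaks. In TWEAK replicate 1 their pileup ran from 8 to 206 with a median of 15, which is 5.70 times the background. In TWEAK replicate 2 it ran from 7 to 158 with a median of 13, which is 7.04 times the background. The rank percentile within each list, where 100 is the strongest peak, had a median of 32.5 and 31.2. Both pileups were at least 5 times the background at 672 sites (56.8%), at least 10 times at 217 (18.3%) and at least 20 times at 63 (5.33%). Both ranks lay above the middle of the list at 229 sites (19.4%). At 134 sites (11.3%), at least 1 TWEAK peak sat at the lowest pileup its list admits, and at 12 sites both did. The ranks of the 2 TWEAK libraries had a Pearson r of 0.828 over the 1183 sites, a description across sites of libraries that share base composition and mappability.

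**Figure D1:**
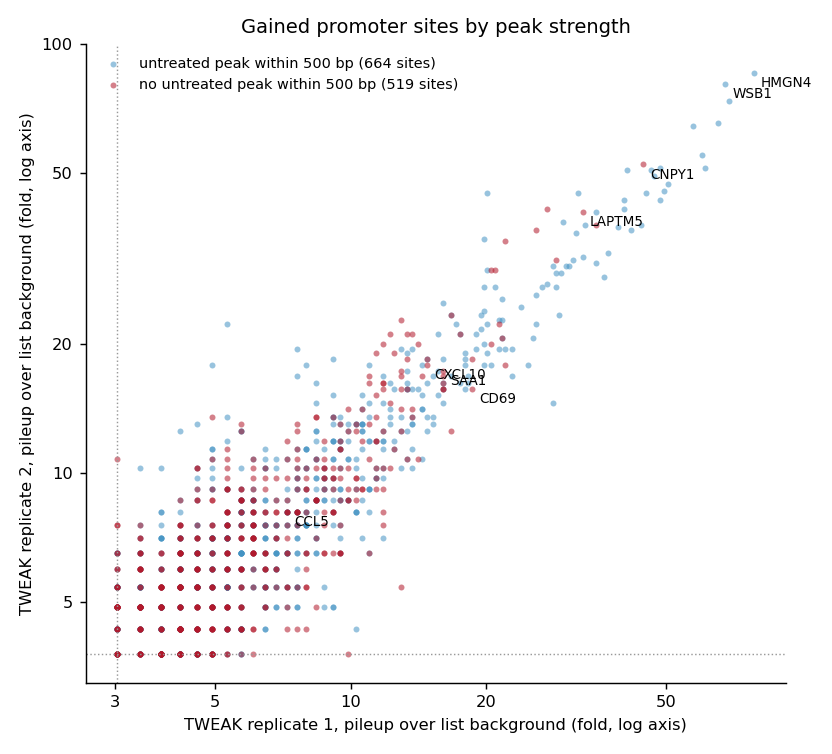
Pileup over list background of each gained promoter site in TWEAK replicate 1 (x) and TWEAK replicate 2 (y), both on log axes, with dotted lines at the lowest value each list admits. Each point is 1 site, and the 664 sites with an untreated peak within 500 bp take the strongest places, while the 519 without one reach 44.4 and 52.5 times the background at CNPY1.

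Just outside the selection were 2658 promoter sites where 1 untreated library had a peak beside those of both TWEAK libraries. Of these, 1241 had it in untreated replicate 1 and 1417 in untreated replicate 2. Their untreated peak stood at a median of 6.26 times the background, and in 102 of them (3.84%) it sat at the lowest pileup admitted. Near the 1 kb limit, the site at CRB3 lay 999 bp from a TSS with ranks of 46.8 and 43.0, and the site at INPP1 lay 1001 bp away with ranks of 51.8 and 49.4. The limits of the rule therefore divide sites of like strength.

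The position of the nearest untreated peak split the sites into 2 kinds. An untreated peak lay within 500 bp of 664 sites (56.1%), and none lay that near to 519 (43.9%). At 102 of the 664 (15.4%) an untreated neighbour overlapped no TWEAK peak. The strongest gained sites were of the first kind, as the plot of peak strength shows. At HMGN4, a gene of the nucleosome-binding HMGN family, TWEAK replicates 1 and 2 had peaks of pileup 206 and 158 over the TSS, and the untreated libraries had peaks of 265 and 152 whose nearer end lay at −607 and −636 bp. TWEAK replicate 1 also had the upstream peak, with a pileup of 193, and TWEAK replicate 2 did not. At WSB1, which encodes a substrate receptor of a ubiquitin ligase, the TWEAK libraries had peaks of 178 and 149 that began 408 bp downstream of a TSS, next to untreated peaks of 290 and 168 that ended at −31 and −37 bp from it. At FLII, an actin-binding protein of the gelsolin family, gained peaks of 151 and 119 lay beside a peak present in all 4 libraries, with pileups of 181 and 143 untreated and 154 and 107 with TWEAK. All peaks had 1 width and those of a list did not overlap, so a wide accessible region is represented by 1 or more windows whose placement differs between lists. At these 3 genes the promoter region was accessible in all 4 libraries. The gained sites near CLTRN and in PLEC, a cytolinker, were of the same kind, with untreated peaks 61 and 29 bp away.

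The sites with no untreated peak within 500 bp are given next by the rank of their peaks. CNPY1, a member of the canopy family, had TWEAK pileups of 117 and 97, with an untreated peak 737 bp away. LAPTM5, a lysosomal membrane protein best known from blood cells, had 86 and 75, and the nearest untreated peak lay 7477 bp away. EFCAB2, an EF-hand protein, had 92 and 70, at 586 bp from an untreated peak. The CNPY1 site covered the canonical TSS, whereas the other 2 lay at starts of transcripts not annotated as protein-coding.

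ITPR1 encodes an inositol trisphosphate receptor that releases calcium from the endoplasmic reticulum. Its strongest gained site, at chr3:4782689-4783200, had pileups of 72 and 76 in the TWEAK libraries, 27.3 and 41.2 times the background. It lay in an intron, centred at −357 bp from the TSS of a transcript not annotated as protein-coding, and 2 more gained sites lay at other starts of the gene with pileups of 10 and 7, and of 10 and 13. CAMK1G, a calcium and calmodulin-dependent kinase, had 75 and 58, also in an intron. MB, which encodes myoglobin, had 68 in both TWEAK libraries, centred at −698 bp from a TSS. At MB and CAMK1G the nearest untreated peak lay 6331 and 3310 bp away, so both sites stood apart from any untreated peak.

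SLC26A9, an anion transporter of epithelia, had pileups of 58 and 64, and a second gained site of the gene had 21 and 18. RARRES1, a retinoic acid-responsive gene, had 55 in both TWEAK libraries. CEACAM1, an adhesion molecule, had 54 and 55. At each of these 3 genes the pileup was at least 20 times the background in both TWEAK libraries. RHEB, the GTPase that activates mTORC1, had 54 and 37, GASK1B, a Golgi protein, had 58 and 33, and MAPRE3, a protein of microtubule ends, had 38 and 31. The RHEB and GASK1B sites held an NF-kB motif, and the GASK1B and MAPRE3 sites held an AP-1 motif.

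**Figure D2:**
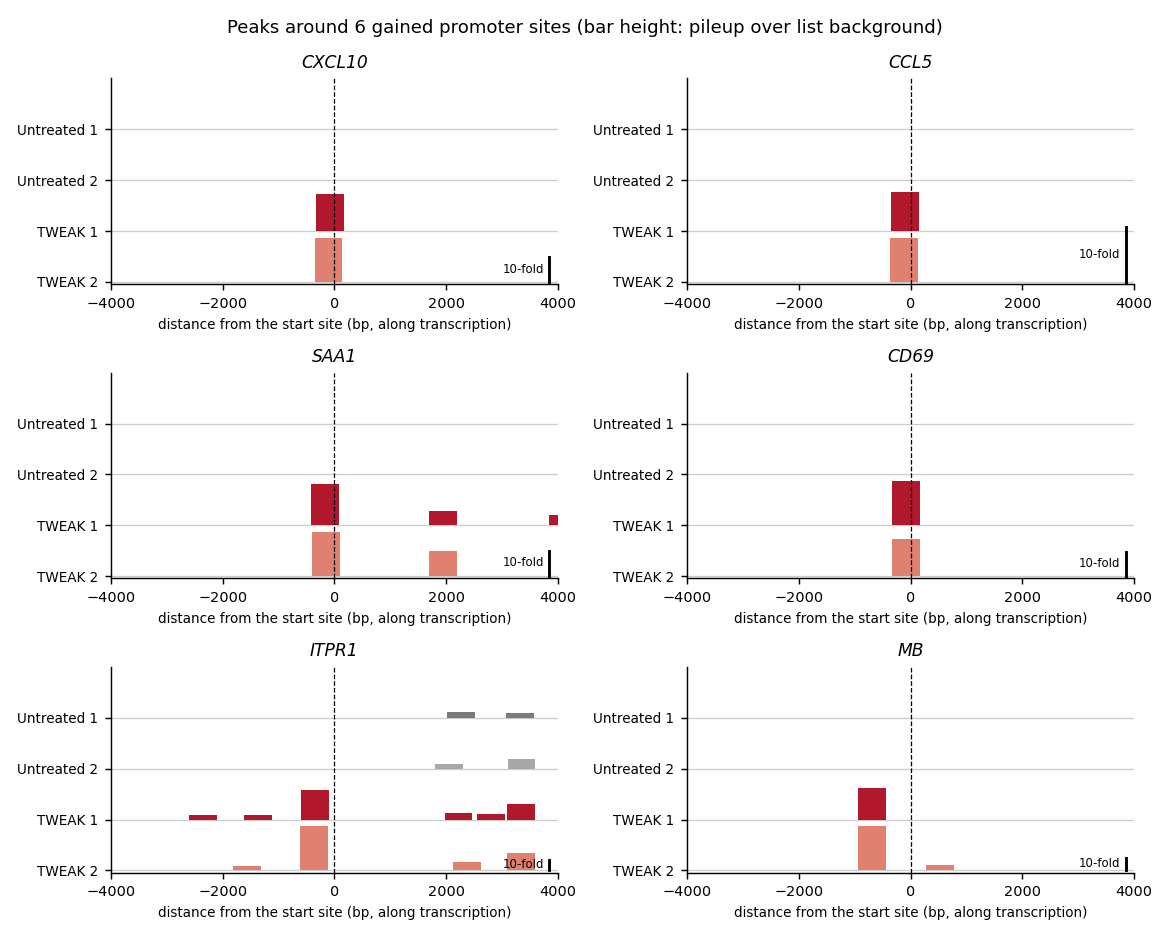
Deposited peaks within 4000 bp of the nearest TSS at CXCL10, CCL5, SAA1, CD69, ITPR1 and MB, with 1 line per library, distance along the direction of transcription on the x axis and bar height giving pileup over list background (scale bar, 10-fold). At CXCL10, CCL5, SAA1, CD69 and MB the untreated lines are empty, while at ITPR1 untreated peaks lie downstream of the TSS.

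A smaller set of genes had no promoter peak at all without TWEAK. No untreated peak lay within 1 kb of the nearest TSS for 433 gained sites (36.6%), and none lay within 1 kb of any TSS of the gene for 72 sites (6.09%) at 71 genes. The count of 433 depended on the libraries and starts used, with 791 to 1275 when any 1 library was left out, 218 with starts of protein-coding transcripts only and 87 with canonical starts only. Counting peaks by gene rather than by site, 3630 genes had no promoter peak in either untreated library, and 83 of these (2.29%) had one in both TWEAK libraries. The opposite, a promoter peak in both untreated and neither TWEAK library, was present at 87 genes, so gain and loss at this level were nearly equal in number. SLC26A9 was the strongest of the 71 genes.

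Chemokine promoters were among them. CXCL10, a chemokine that draws T cells through CXCR3, had a gained site at chr4:76023332-76023851, centred at −85 bp from the canonical TSS. Its pileup was 39 in TWEAK replicate 1 and 33 in TWEAK replicate 2, 14.8 and 17.9 times the background, and the nearest untreated peak lay 15766 bp away. CCL5, a chemokine of T cells and monocytes, had a gained site centred at −92 bp from the canonical TSS, with pileups of 19 and 15. The nearest untreated peak lay 30316 bp away, so both chemokine promoters were bare of peaks in the untreated lists over a wide stretch. CCL20, the ligand of CCR6, had 2 gained sites, with pileups of 14 and 9 at the first and 22 and 16 at the second. Both were near a TSS of a CCL20 transcript not annotated as protein-coding, and no untreated peak lay within 3350 bp. The first CCL20 site was the weakest of these 4 chemokine sites, with ranks of 29.2 and 12.3.

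Further genes of the same set follow. SAA1, an acute-phase protein, had pileups of 42 and 32 at a site centred at −167 bp from a TSS, and the nearest untreated peak lay 12229 bp away. CD69, a surface marker of early lymphocyte activation, had 49 and 29 at a site centred at −86 bp from its canonical TSS. SPINK5, an inhibitor of serine proteases of the skin, had 46 and 39, and the nearest untreated peak lay 43237 bp away. These 3 sites had ranks between 62.1 and 72.7, in the upper part of both lists. CTSE, an aspartic protease, had 44 and 43 over its canonical TSS, and CRISP3, a secreted cysteine-rich protein, had 57 and 38. KRT77, a keratin, had 34 and 32, LYZL1, a lysozyme-like protein, had 30 and 35, and STAR, which carries cholesterol into mitochondria, had 31 and 30. All of these sites exceeded 10 times the background in both TWEAK libraries.

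Weaker sites of the same set were named after their values were seen, and are a choice of genes with roles in immunity. PDCD1LG2, which encodes the PD-1 ligand PD-L2, had pileups of 17 and 15, and IL36RN, the antagonist of the IL-36 receptor, had 22 and 13. IL2RG, the common gamma chain of cytokine receptors, had 25 and 14. UBD, a ubiquitin-like modifier induced by TNF and interferon, had 17 and 10. These 4 had ranks from 17.9 to 53.3. IRF8, a transcription factor of the interferon regulatory family, had 12 and 12, APOL6 had 15 and 16, APOL1 had 9 and 13, and CASP1, the inflammatory caspase, had 10 and 9. The CASP1 and APOL1 sites came near the lowest pileup admitted. The set also held genes with no known place in immunity, such as the olfactory receptor genes OR4Q3 and OR10AC1 with 16 and 20, and with 11 and 10.

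Pathway genes of TWEAK, NF-kB and related groups were then counted from 15 lists of 276 genes, chosen with earlier results of these data known. Of the 276, 36 genes (13.0%) had a gained promoter site beside 6.01% of all protein-coding genes, and 16 had a lost one beside 7.06%. No test was made of these counts. None of the 5 NF-kB subunit genes had a gained promoter site, and all 5 had a promoter peak in every library. Of 12 genes of NF-kB inhibitors and feedback, 4 had one and none had a lost one. They were NFKBIE, NFKBIZ, TNFAIP3, which encodes the ubiquitin-editing inhibitor A20, and TNIP1, which encodes an A20-binding protein. The TNFAIP3 site was weak, with pileups of 13 and 9, while a peak present in all 4 libraries, singled out after its values were seen, which began 1993 to 2018 bp downstream of that TSS, had 61 and 50 without TWEAK and 150 and 106 with it, 17.0, 22.4, 57.0 and 57.4 times the background. NFKBIE was at the edge of detection with 8 and 9, NFKBIZ had 14 and 9, and TNIP1 had 16 in both libraries.

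A list of 14 NF-kB signalling genes mixed the non-canonical pathway with genes of the canonical one, such as IKBKG and MAP3K7. Of the 14, 5 had a gained promoter site and 1, TRAF1, had a lost one. BIRC3 had 2, with pileups of 25 and 12 upstream of the canonical TSS and 13 and 13 downstream of it. The canonical BIRC3 promoter peak between them was present in every library. BIRC2 had a gained site of 24 and 25. CHUK and IKBKG, subunits of the IkB kinase, had 15 and 12, and 13 and 8, and MAP3K7, which encodes the kinase TAK1, had 17 and 13. At the BIRC3, BIRC2, CHUK, IKBKG and MAP3K7 genes an untreated promoter peak was present, so these sites added to promoters that were already accessible. TNF receptor superfamily genes and ligands had a gained site at 2 of 28, TNFRSF25 and FAS, and a lost one at 1, TNFRSF14.

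Chemokines had a gained promoter site at 4 of 20 genes and a lost one at 1, CCL17. Besides CXCL10, CCL5 and CCL20, the site at CXCL14 had pileups of 32 and 27. All 4 chemokine genes had a gained site with no untreated peak within 500 bp. The number of the 20 chemokine genes with a promoter peak was 13 and 12 in the untreated libraries and 14 and 18 in the TWEAK libraries, so TWEAK replicate 1 lay close to the untreated libraries. Cytokines had a gained site at 3 of 20 genes, IL32 with 2 sites, IL36G and CSF3, and a lost one at 1, LIF. Pileups at IL36G were 10 and 8, near the lowest admitted. AP-1 factors had one at 3 of 14, ATF3, MAFG and JDP2, and MAFG and JDP2 also had a lost one.

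Survival genes had a gained promoter site at 3 of 12, BCL2 with 26 and 16, BCL2L1 with 12 and 24, and CFLAR, which encodes the caspase-8 inhibitor c-FLIP, with 29 and 31, and a lost one at 1, BBC3. Interferon and antigen presentation genes had one at 3 of 34, among them MX1 with pileups of 9 and 13 and PSMB9 with 24 and 15, and a lost one at 1, ISG15. Adhesion and surface genes had one at 1 of 18, CD274, the gene of PD-L1, with 11 and 12, and a lost one at 1, NECTIN2. Matrix proteases and their inhibitors had none of 16 and a lost site at 3, MMP14, TIMP1 and TIMP2. Genes of NAD metabolism had one at 2 of 11, NMRK1 with 14 and 10 and NNMT with 15 and 7, and no lost one. The NNMT pileup of 7 was the lowest that the list of TWEAK replicate 2 admits. Luminal and epithelial genes had a gained site at 3 of 22, ELF3, KRT19 and CLDN4, and a lost one at 2, GATA3 and CLDN7. Basal and mesenchymal genes had one at 1 of 22, FN1, and a lost one at 1, KRT5. Ribosomal protein genes had one at 2 of 28, RPS2 and RPS18, and a lost one at 1, RPL8.

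Some genes gathered several gained sites. There were 68 genes with at least 2, and CALD1, which encodes the actin-binding caldesmon, had 4. Their pileups were 10 and 7, 14 and 20, 27 and 18, and 37 and 37. IL7R, the receptor of interleukin 7, had 3, with 9 and 12, 18 and 10, and 30 and 25. ITPR1, KANK1 and LMNA, the lamin A/C gene, also had 3. By chromosome, gained promoter sites numbered from 10 on chromosome 21 to 132 on chromosome 1. Chromosome 19 held 4.56% of gained and 6.94% of shared promoter sites.

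Gained promoter sites lay farther from the TSS than shared ones. Shared promoter sites are the 26365 with a peak in all 4 libraries. The centre of a gained site lay a median of 502 bp from the nearest TSS, against 571 bp for lost and 146 bp for shared promoter sites. Within 250 bp of it were 360 gained sites (30.4%), beside 27.4% of lost and 58.6% of shared sites. The nearest TSS was that of the canonical transcript for 198 gained sites (16.7%), that of another protein-coding transcript for 456 (38.5%) and that of a transcript not annotated as protein-coding, in a protein-coding gene, for 529 (44.7%). The centre fell in an intron at 720 sites (60.9%), in a UTR at 124, in another exon at 192 and outside genes at 147. By position, gained and lost sites resembled each other more than either resembled the shared sites.

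**Figure D3:**
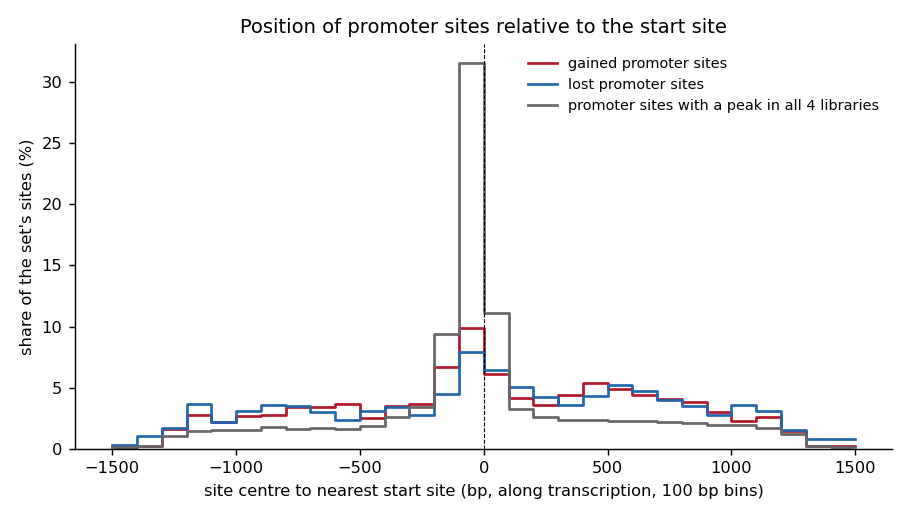
Share of sites (y, percent) by distance of the site centre from the nearest TSS (x, bp along the direction of transcription, bins of 100 bp) for gained, lost and shared promoter sites. Shared sites peak just upstream of the TSS, while gained and lost sites spread over the whole range, with medians of 502 and 571 bp against 146 bp.

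Gained promoter sites were poorer in GC than lost and shared ones. The GC content within 250 bp of the centre had a median of 51.3% at gained, 54.7% at lost and 59.9% at shared promoter sites, and 44.5% at the 9897 gained sites beyond 1 kb of a TSS. Sites rich in CpG, with at least 50% GC and a CpG ratio, observed over expected, of at least 0.6, made up 16.2% of gained, 14.4% of lost and 48.3% of shared promoter sites. Among gained sites with no untreated peak within 500 bp they made up 5.59%, and among those with one 24.5%. Gained promoter sites that stood alone were thus poor in CpG, between shared promoters and distal gained sites, of which 0.546% were rich in CpG. Lost promoter sites with no TWEAK peak within 500 bp were also poor in CpG, with 8.74% rich in it.

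Motifs were a property that the selection did not use. The NF-kB consensus, of 10 letters, was found on either strand within 100 bp of the midpoint of the highest-ranked peak at 196 gained promoter sites (16.6%, 95% Wilson interval 14.6 to 18.8). It was found at 86 of 1467 lost sites (5.86%, 4.77 to 7.18), at 8.09% of shared promoter sites and at 8.11% of all 49998 promoter sites. Gained sites beyond 1 kb held it at 20.5%. Neighbouring sites are not independent and the intervals cover counting error only, so no p was computed over sites. The share at gained promoter sites lay between those of lost and of distal gained sites.

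The AP-1 motif TGACTCA, searched on both strands, was found at 123 gained promoter sites (10.4%, 8.78 to 12.3). With canonical start sites only the share was 5.96%. Lost sites held it at 4.57%, shared promoter sites at 5.77%, all promoter sites at 5.53% and distal gained sites at 17.4%. Both motifs were present at 24 gained sites (2.03%). The TEAD motif CATTCC, whose letters can overlap an NF-kB match, was at 16.3% of gained, 11.7% of lost and 11.1% of shared promoter sites. The Sp/KLF motif GGGCGG showed the opposite, at 15.8% of gained, 16.6% of lost and 42.6% of shared sites. The TATA motif TATAAA was at 5.83%, 4.57% and 4.01%, and the GATA motif AGATAA at 6.34%, 6.0% and 3.39%. Of the motifs named, those of NF-kB, AP-1 and TEAD had intervals at gained sites that did not meet those at lost sites.

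**Figure D4:**
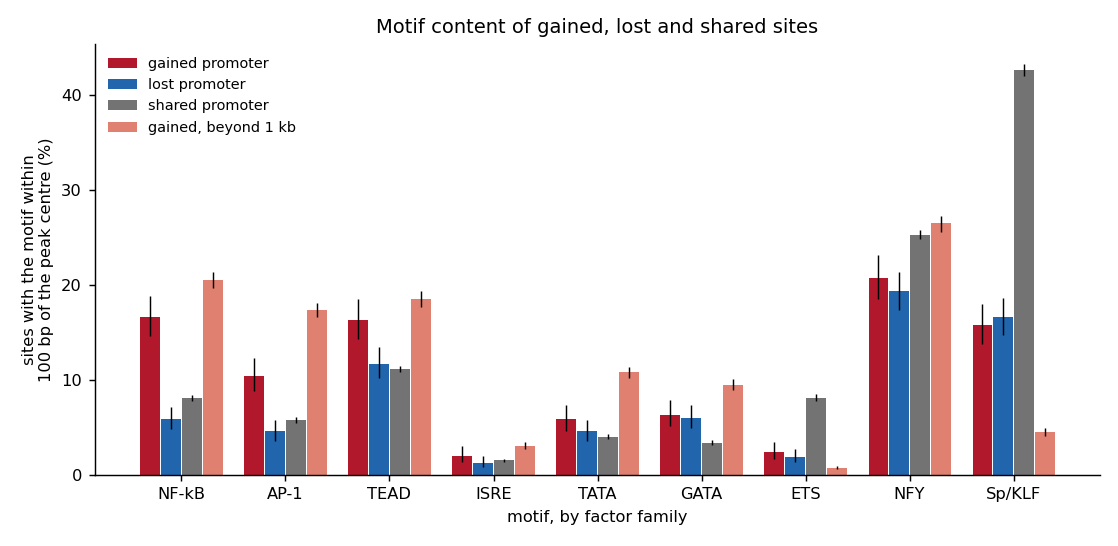
Share of sites (y, percent) with each of 9 motifs (x) within 100 bp of the peak centre at gained, lost and shared promoter sites and at gained sites beyond 1 kb of a TSS, with 95% Wilson intervals as error bars. NF-kB stood at 16.6% of gained against 5.86% of lost promoter sites, and Sp/KLF at 15.8% and 16.6% of them against 42.6% of shared sites.

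Both motifs were more frequent at gained sites with no untreated peak near them. With no untreated peak within 500 bp, 112 of 519 sites (21.6%, 18.3 to 25.3) held the NF-kB motif, and with one 84 of 664 (12.7%, 10.3 to 15.4) did. For AP-1 the counts were 88 (17.0%, 14 to 20.4) and 35 (5.27%, 3.81 to 7.24), so sites beside an untreated peak held it at about the 5.53% of all promoter sites. Lost sites with no TWEAK peak within 500 bp, the mirror image, held the NF-kB motif at 38 of 698 (5.44%). Strength went along with the NF-kB motif. In the weakest of 4 groups by rank 10.0% of gained sites held it, in the middle groups 15.9% and 15%, and in the strongest 25.4%. For AP-1 the shares were 5.02%, 11.8%, 13.0% and 12.0%. The Sp/KLF motif, at 12.0%, 10.6%, 14.6% and 26.8%, was also most frequent in the strongest group. So were sites rich in CpG, at 11.4%, 11.8%, 12.6% and 29.6%, while TEAD, at 15.7%, 18.6%, 14.6% and 15.8%, was not. The higher share in the strongest group was thus not particular to NF-kB. Among sites with both ranks above the middle of the list, 58 of 229 gained (25.3%) and 7 of 155 lost (4.52%) held the NF-kB motif. At genes without any untreated promoter peak the NF-kB motif was at 16 of 72 gained sites (22.2%, 14.2 to 33.1). The share of all gained sites, 16.6%, lay within that interval. CXCL10, CCL5, SAA1, UBD, IL36RN, KRT77 and STAR were among the 16. The AP-1 motif was at 6 of the 72 (8.33%, 3.88 to 17.0), beside 10.4% of all gained sites.

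Promoter sites present in all 4 libraries allowed a measure that the selection had not used, the rank of their peaks. At the 2609 shared promoter sites of genes with a gained site, the median rank percentile was 80.38 and 81.65 in untreated replicates 1 and 2 and 80.85 and 78.28 in TWEAK replicates 1 and 2. The TWEAK values overlapped the untreated ones, and the mean difference of −1.45 had an exact permutation p of 0.667, two-sided. Leaving out a library also redefined the gained and shared sites. The difference was then −3.44 without TWEAK replicate 1, −2.39 without untreated replicate 1 and −0.332 without TWEAK replicate 2. Over all 26365 shared promoter sites the difference was −1.74 (exact permutation p = 0.667). Both differences were within the spread between the libraries.

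Shared promoter sites with and without the NF-kB motif were then compared within each library. The 2133 with the motif had a median rank of 80.15 and 81.35 in the untreated and 82.21 and 79.88 in the TWEAK libraries, a difference of 0.295 points (exact permutation p = 1.0). The 24232 without it had 81.29 and 82.51 untreated and 80.85 and 78.28 with TWEAK, a difference of −2.33 points (exact permutation p = 0.333). Ranks are relative to lists of unequal length, and all shared promoter sites differed by −1.74 points, so only the contrast within a library was read. The median rank of sites with the motif minus that of sites without was −1.14 and −1.16 percentile points in untreated replicates 1 and 2 and 1.36 and 1.6 in TWEAK replicates 1 and 2. The 4 libraries separated by treatment, with a difference of 2.63 points, and the exact permutation p of 0.333, two-sided, is the smallest that 2 libraries against 2 allow. For AP-1, computed after the NF-kB result was seen, the values were −6.77 and −5.98 untreated and −3.43 and −3.22 with TWEAK, a difference of 3.05 points with the same p. For the interferon-stimulated response element (ISRE), the difference was 1.96 points. ISRE, NFY (1.27 points), YY1 (0.816) and FOX (−1.04, the opposite direction) also separated the libraries by treatment. Their exact permutation p was 0.333 too, so separation by treatment was not particular to NF-kB and AP-1. Over 17 motifs the differences ranged from −1.12 for GATA to 3.05 for AP-1, and no exact permutation p can pass 0.05 with 2 libraries against 2. AP-1 and NF-kB had the 2 largest differences of the 17.

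**Figure D5:**
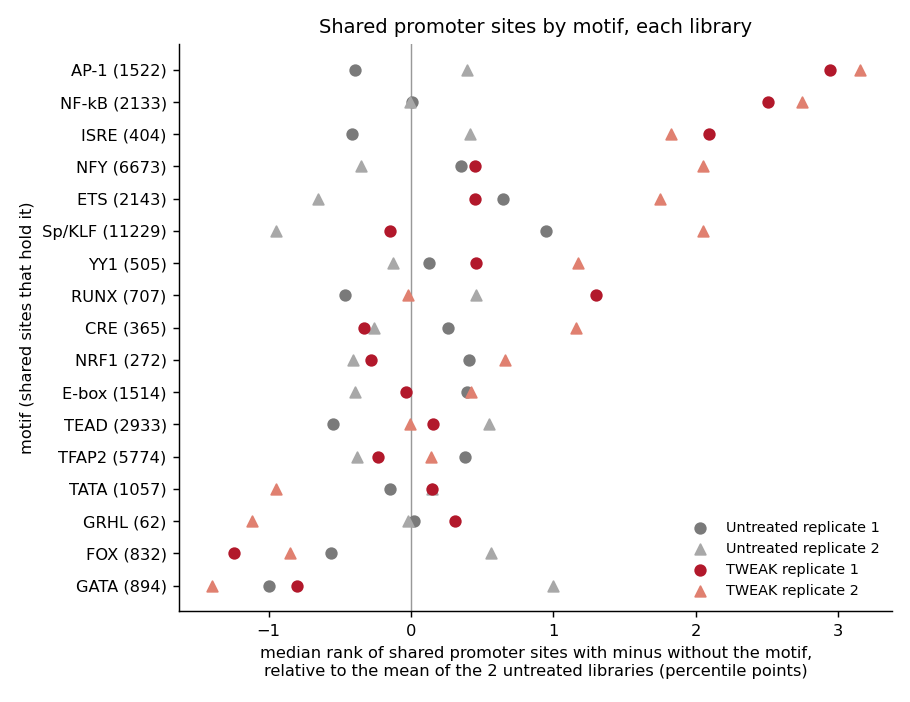
Median rank of shared promoter sites with a motif minus that of sites without it (x, percentile points, relative to the mean of the 2 untreated libraries) for 17 motifs (y, with the number of sites that hold each), with 1 point per library. The TWEAK points of AP-1 and NF-kB lie farthest to the right of the untreated points, by 3.05 and 2.63 points on average.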

How the data were processed

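ATAC-seq was measured in 2 untreated and 2 TWEAK libraries of SKBR3 cells, grouped by the sample titles. The authors trimmed reads with Trimmomatic, mapped them to hg38 with Bowtie2, filtered them with Bamtools and Picard and called peaks with MACS2 in each library, and the lists were not pooled. Versions, caller settings and the handling of the transposase offset were not given in the sources used here. The deposited lists give each peak a value that no header names, and it was taken to be a p-value on the −log10 scale. All values matched Poisson probabilities of reaching a whole-number pileup over 1 background per list, with a relative error of at most 4.98e-06. The background was fitted to the 40 lowest distinct values. The pileup counts from P(X ≥ k), and the other convention would shift it by 1. Values depend on depth, so peaks were ranked only within a list.

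Peaks on chromosomes 1 to 22 and X were merged at 1 bp of overlap. Starts were those of all transcripts of protein-coding genes of GENCODE release 44, and the rule was also run with starts of protein-coding transcripts alone. All 55 sequence names of the lists were in the hg38 reference and 0 peaks passed a sequence end. Motifs were searched for 17 consensus sequences. The members, the lists and the motifs were chosen with earlier results of these data known.

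The sites named were the 10 highest by the lower of their 2 rank percentiles with no untreated peak within 500 bp, the 5 highest with one, the 10 highest at genes with no untreated promoter peak, the 10 and 5 highest with an NF-kB or AP-1 motif and no untreated peak within 500 bp, every gained site of a listed gene, and the sites on either side of the 1 kb limit. Some of these are not reported here. Testing as in the study, with DiffBind, needs reads and was not run. Differences between libraries were tested by exact permutation, two-sided, with a smallest p of 0.333. Python 3.11.15, NumPy 2.4.6, SciPy 1.17.1, pysam 0.24.0 and samtools 1.23.1 were used, and the scripts were tested on simulated lists.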

Additional observations from a re-analysis of the deposited data

How the results depend on the processing

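Leaving out any 1 library relaxes the rule, and each of the 4 omissions more than doubled the count. Without 1 library there were 2519 (without untreated replicate 1) to 3859 (without TWEAK replicate 2) gained promoter sites at 2427 to 3425 genes, of which 791 to 1275 had no untreated peak within 1 kb of the same TSS. Without untreated replicate 2 there were 2659 sites and without TWEAK replicate 1 there were 3255. The share with an untreated peak within 500 bp was 56.7% to 61.6%, that with an NF-kB motif 11.7% to 13.2% and that with an AP-1 motif 7.15% to 9.06%.

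With canonical start sites only there were 537 sites at 574 genes, and the share beside an untreated peak (73.9%), with NF-kB (13.8%) and with AP-1 (5.96%) moved with them, as did the 87 sites without an untreated peak at the TSS. With starts of protein-coding transcripts only, an alternative chosen after seeing the data, the values were 65.1% and 8.64% for untreated neighbours and AP-1, and 218 sites had no untreated peak at the TSS. A peak value of at least 5 gave 48.6%, 19.1% and 12.8% for untreated neighbours, NF-kB and AP-1, and kept 670 of the 1183 sites. A minimum pileup of 5 times background gave 45.8% for untreated neighbours and 19.0% for NF-kB, and kept 672. For untreated neighbours, an overlap of 250 bp gave 68.0%, a limit of 2 kb 50.9%, and neighbours within 250 bp and 1000 bp 39.6% and 67.8%. Motif windows of 50 and 250 bp gave 11.9% and 26.6% for NF-kB and 7.44% and 14.1% for AP-1.

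The rank differences of shared promoter sites kept their sign in every setting run for them, but their size depended on the libraries. Leaving out a library also redefined the sites compared. At genes with a gained site the difference of −1.45 points became −3.44 without TWEAK replicate 1, −2.39 without untreated replicate 1 and −0.332 without TWEAK replicate 2. For the NF-kB motif it ran from 2.10 to 2.75. In a paired analysis with the replicate block, the differences were −1.45 points (exact sign-flip p = 1.0) at genes with a gained site and 2.63 points (exact p = 0.5, the smallest possible) for the NF-kB motif. Whether the numbers pair the libraries was not stated. With 2 libraries a group no exact permutation or sign-flip test could pass 0.05, and sites near the lowest admitted pileup were at the limit of the depth.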
